A study of Homo sapiens with 12 samples.

Results

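The miR-200 family was followed through 12 small RNA libraries of 2 pancreatic ductal adenocarcinoma (PDAC) cell lines. Its members are the 9 mature miRNAs hsa-mir-200a-3p, hsa-mir-200a-5p, hsa-mir-200b-3p, hsa-mir-200b-5p, hsa-mir-200c-3p, hsa-mir-200c-5p, hsa-mir-141-3p, hsa-mir-141-5p and hsa-mir-429, taken by name from the 1733 mature miRNAs that the count files list. AsPC-1 and PANC-1, established human lines, were transfected with small interfering RNA (siRNA). Each line gave 3 control and 3 MYEOV knockdown libraries, which the labels place 48 h after transfection, while the study's methods give a shorter time. MYEOV is a gene whose depletion was the treatment of the study, and the comparison asked which miRNAs its loss moves. The labels describe the controls as untreated, while the protocol names a negative control siRNA. The protocol also names a pair of siRNAs against MYEOV without saying which library received which. MYEOV mRNA is not measured by small RNA counts, so its depletion was not checked here. The study's methods say in general that experiments were performed independently, but nothing says of these libraries that those of a group came from separate cultures. Each p-value thus measures only the spread between these libraries, which may be technical.

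A miRNA is cut from a hairpin, and either strand of the duplex can be kept, giving a 5p and a 3p product. Its seed, bases 2 to 8, selects the mRNAs it represses. Members of the miR-200 family are well known for keeping epithelial cells epithelial: their 3p products repress ZEB1 and ZEB2, transcription factors that silence E-cadherin, and both factors in turn repress the miR-200 genes. Loss of the family is a common mark of carcinoma cells in a mesenchymal state.

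The sequences show how alike the members are, with the seed in capitals. They are the RefSeq mature miRNAs (table on GRCh38.p14), matched by name for 8 of the 9 members, and miR-141-5p was not in the table. The first set holds the members with the seed of miR-200a.
hsa-mir-200a-3p: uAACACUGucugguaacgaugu
hsa-mir-141-3p: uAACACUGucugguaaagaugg
The next set holds those with the seed of miR-200b.
hsa-mir-200b-3p: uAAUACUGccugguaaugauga
hsa-mir-200c-3p: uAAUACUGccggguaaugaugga
hsa-mir-429: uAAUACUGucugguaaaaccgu
The last set holds the 5p products.
hsa-mir-200a-5p: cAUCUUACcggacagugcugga
hsa-mir-200b-5p: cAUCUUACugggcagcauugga
hsa-mir-200c-5p: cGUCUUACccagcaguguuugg
Positions are counted from 1 at the 5′ end, and the base of the first named miRNA comes first. The seeds of miR-200a-3p and miR-200b-3p differ by C4U alone. miR-200a-3p and miR-141-3p were identical at 20 of 22 positions and differed by C17A and U22G. miR-200b-3p and miR-200c-3p were also identical at 20 of 22 compared positions and differed by U11G and A22G. Only perfect matches to the genome were counted, and every pair of 3p members, and of the 5p members shown, differed by position 17 at the latest, within the shortest reads the authors kept.

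The 5 hairpins lie in 2 loci, both on the plus strand of GRCh37. MIR200B (chr1:1102484-1102578), MIR200A (chr1:1103243-1103332) and MIR429 (chr1:1104385-1104467) sit within 1984 bases and overlap no other annotated gene. MIR200C (chr12:7072862-7072929) and MIR141 (chr12:7073260-7073354) sit within 493 bases, in the intron between exon 1 and exon 2 of the long noncoding RNA gene MIR200CHG (chr12:7072389-7073610). Each of the 8 mature sequences was found without a mismatch inside its hairpin.

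The window around the start of MIR200CHG is shown because ZEB1 and ZEB2 bind E-box sequences. It covers chr12:6962995-6963294 of GRCh38.p14, plus strand, is 300 bases long and ends 50 bases after the start, and the capitals mark matches to CACCTG and CAGGTA, each searched on both strands.
MIR200CHG: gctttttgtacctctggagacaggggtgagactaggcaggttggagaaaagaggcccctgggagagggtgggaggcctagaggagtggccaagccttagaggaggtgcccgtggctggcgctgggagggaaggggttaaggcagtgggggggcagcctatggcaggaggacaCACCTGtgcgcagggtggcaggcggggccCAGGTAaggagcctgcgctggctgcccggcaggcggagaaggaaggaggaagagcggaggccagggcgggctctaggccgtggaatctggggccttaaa
CACCTG was found at -78 and CAGGTA at -49 relative to the start. Of 35116 RefSeq promoter windows of the same kind, 20.6% held CACCTG, 9.83% held CAGGTA and 2.33% held both. A match describes the letters only, and no binding was measured.

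The libraries held 3805084 to 7311783 counts and listed 1014 to 1144 miRNAs each, with AsPC-1 at 5587106 to 7311783 counts and PANC-1 at 3805084 to 5049361. In AsPC-1 every control library (6463528 to 7311783 counts) was deeper than every knockdown library (5587106 to 5934261), so depth went with treatment there. A count of 0 allows up to 3 counts, or 0.410 to 0.788 CPM (counts in every 1000000) depending on the library, for counting error alone. AsPC-1 control replicate 1 stood apart: its chi-square per degree of freedom against the other AsPC-1 controls was 277 and 225, where the 10 other pairs of same-group libraries gave 9.40 to 69.7. No pair of libraries agreed within sampling noise. Where leaving it out changed a member's call or moved a member's knockdown LFC by more than 1.5 times, that value is given.

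AsPC-1 cells carried the family at high levels and PANC-1 cells carried traces of it. The 9 members together took 5.02% to 5.38% of all counts in AsPC-1 control libraries and 5.13% to 5.34% after knockdown. In PANC-1 they took 0.0259% to 0.0286% in controls and 0.0225% to 0.0268% after knockdown. The ranges of the lines were far apart, and those of control and knockdown overlapped within each line. These are bulk libraries, in which fewer cells that carry a miRNA and less of it per cell cannot be told apart.

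In AsPC-1 control libraries miR-200b-3p and miR-200a-3p of the chr1 locus led. Normalised CPM uses trimmed-mean (TMM) factors over all 12 libraries here and below, except where the factors of one line's own fit are named. miR-200b-3p stood at 20863 in replicate 1, 19078 in replicate 2 and 21384 in replicate 3, and miR-200a-3p at 21683, 18672 and 18280. Their ranges overlapped and miR-200b-3p was above miR-200a-3p in 2 of 3 libraries, so this top pair was not ordered beyond its spread. miR-200c-3p followed at 11137 ± 789 (SD, n = 3) and miR-429 at 7271 ± 213. Below them came miR-200a-5p at 1287 ± 220, miR-141-3p at 317 ± 65.7, miR-200b-5p at 210 ± 6.05, miR-141-5p at 69.6 ± 12.6 and miR-200c-5p at 9.41 ± 3.79. From miR-200a-3p downwards, no member overlapped the next one in the control libraries. The knockdown libraries of AsPC-1 kept this order.

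In PANC-1 control libraries miR-200b-3p again led, at 96.6, 101 and 103 normalised CPM, which were 501, 610 and 452 counts. miR-200a-3p stood at 81.5, 68.5 and 74.4, and miR-429 at 28.5, 28.4 and 25.8. miR-200c-3p, above miR-429 in AsPC-1, was below it here at 16.4, 16.1 and 13.5. miR-200a-5p had 29, 45 and 35 counts, or 5.59, 7.46 and 7.99 normalised CPM. None of these 5 overlapped its neighbour in the PANC-1 controls. After knockdown miR-429 and miR-200c-3p overlapped, at 16.3 to 22.9 and 10.0 to 20.9, and so did miR-200c-3p and miR-200a-5p, which stood at 11.2 to 14.2.

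The other 4 members were at or near 0 in PANC-1. miR-200b-5p had 9, 6 and 0 counts in the controls and 4, 5 and 4 after knockdown. miR-141-3p had 3, 1 and 1 counts and then 0, 1 and 0, and miR-141-5p had 2, 0 and 0 and then 2, 1 and 0. miR-200c-5p was not listed in any of the 6 PANC-1 libraries, which allows up to 0.594 to 0.788 CPM per library. These 4 did not pass the filter on low counts in PANC-1, so the PANC-1 knockdown comparison tested 5 of 9 members and the AsPC-1 comparison all 9. In the PANC-1 knockdown libraries miR-200b-5p was above the other 3 without overlap, and these counts did not resolve the order of these 4 any further.

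**Figure D1:**
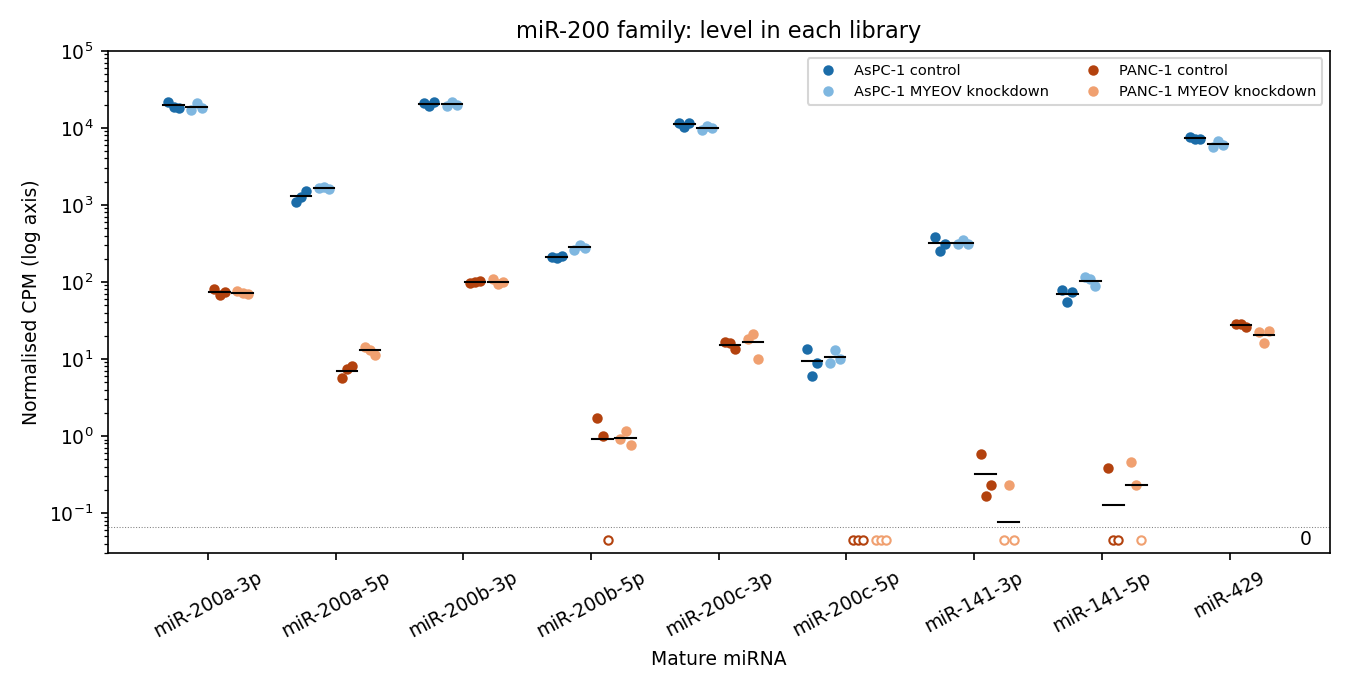
Normalised CPM of each miR-200 family member (x axis) on a log axis, with 1 point per library, black bars for the mean of 3 libraries and open points on the bottom line for libraries at 0. Every member was higher in the 6 AsPC-1 libraries than in the 6 PANC-1 libraries, and miR-200c-5p was at 0 in all PANC-1 libraries.

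All 9 members were higher in AsPC-1 than in PANC-1, in controls and after knockdown, with no overlap. This count has to be read with its background: 82.8% of 627 miRNAs tested differed between the lines in controls and 36% were higher in AsPC-1, and 85.9% of 609 differed after knockdown, with 37.6% higher in AsPC-1. In addition, 4 members passed the filter through the AsPC-1 libraries alone and so had to differ. For the 5 others the log2 fold change (LFC, AsPC-1 over PANC-1) in controls was 7.88 (SE 0.13) for miR-200a-3p, 7.38 (SE 0.19) for miR-200a-5p, 7.52 (SE 0.12) for miR-200b-3p, 9.35 (SE 0.14) for miR-200c-3p and 7.89 (SE 0.12) for miR-429. The largest adjusted p among them was 1.6e-14 in edgeR's quasi-likelihood test. The knockdown libraries, a separate set, gave 8.01, 7.02, 7.65, 9.26 and 8.21 for the same 5 miRNAs. The median LFC of all miRNAs tested in controls was -0.27 with TMM factors, -0.60 with total counts and 0.65 with upper-quartile factors, and the number higher against lower in AsPC-1 went from 226 and 293 to 345 and 200 with upper-quartile factors (in knockdown libraries, from 229 and 294 to 331 and 210). The members' LFCs were larger than these shifts under each scaling, with 7.04 as the lowest value in controls.

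From the summed counts of 3 libraries a line, over library sizes scaled by TMM factors, miR-200a-3p was 261-fold higher in AsPC-1 controls (95% counting interval 247 to 277) and miR-200b-3p 204-fold higher (194 to 214). miR-200c-3p was 719-fold higher (634 to 819), and its interval lay above those of all 5 members of the chr1 locus. For miR-141-3p the ratio was 979 (419 to 3017), resting on 5 PANC-1 counts, and for miR-141-5p it was 538 (149 to 4451), resting on 2. miR-200b-5p gave 218 (132 to 390) from 15 PANC-1 counts. miR-200c-5p was 48.0-fold higher when a floor of 3 counts was set over the 3 PANC-1 control libraries. Its 95% counting interval, which also takes in the error of its 165 AsPC-1 counts, started at 38.6. These intervals cover counting error only, and the folds depend on the scaling: the LFC of miR-200a-3p was 7.55 with total counts and 8.81 with upper-quartile factors.

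PANC-1 thus held 0.383% of the AsPC-1 control level of miR-200a-3p, 0.491% of miR-200b-3p, 0.381% of miR-429 and 0.139% of miR-200c-3p. To place these values, all 83 miRNAs above 1000 normalised CPM in AsPC-1 controls were ranked by their PANC-1 level as a share of the AsPC-1 level. The median was 51.0%, and 11 miRNAs were under 1%, the next being at 14.3%. A list chosen for high AsPC-1 levels favours low shares, and of the 83 miRNAs above 1000 CPM in PANC-1 controls, 17 were under 1% of that level in AsPC-1. Among those 11 were the 5 members above 1000 CPM, with miR-200c-3p in place 3, miR-429 in place 7, miR-200a-3p in place 8, miR-200b-3p in place 9 and miR-200a-5p in place 10 from the lowest. The lowest were miR-452-5p at 0.0130% and miR-224-5p at 0.0263%, named after their values were seen. As these were picked as the lowest of the 83, every member stood above them by selection. Between miR-200c-3p and miR-429 lay miR-215-5p at 0.245%, miR-194-5p at 0.283% and miR-192-5p at 0.316%. After the members came miR-135b-5p at 0.878%. The source of the PANC-1 reads was not tested.

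**Figure D2:**
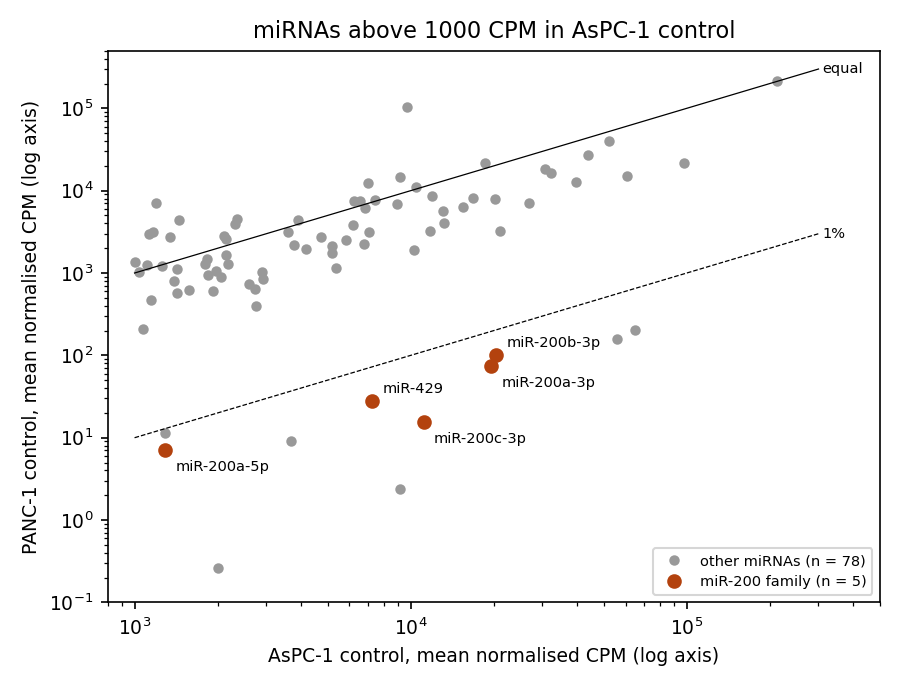
Mean normalised CPM in PANC-1 controls (y axis) against AsPC-1 controls (x axis), both log axes, for the 83 miRNAs above 1000 CPM in AsPC-1, with 1 point per miRNA and n = 3 libraries a line. The 5 family members in red lie below the dashed line, at under 1% of the AsPC-1 level, where 6 other miRNAs also lie.

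The balance between the loci differed between the lines. The chr12 locus (miR-200c and miR-141) gave 18.5% to 19.7% of the family's counts in AsPC-1 controls and 17.7% to 18.4% after knockdown. In PANC-1 it gave 6.09% to 7.50% and 4.69% to 9.79%. Within a library, the count of miR-200b-3p over that of miR-200c-3p was 1.79 to 2.09 in the 6 AsPC-1 libraries and 4.54 to 9.88 in the 6 PANC-1 libraries, so the lines did not overlap. Within the chr1 locus, miR-200b-3p over miR-200a-3p was 1.18 to 1.48 in PANC-1 libraries against 0.962 to 1.17 in AsPC-1 libraries. These did not overlap, but the gap was narrow. The lowest PANC-1 value, that of control replicate 1, rests on 501 over 423 counts, and the counting error of the gap was not computed. miR-200b-3p over miR-429 was 3.39 to 5.84 against 2.67 to 3.48, and here the lines overlapped. These ratios are descriptions with no test. In a PANC-1 library they rest on 52 to 97 counts of miR-200c-3p, 307 to 423 of miR-200a-3p and 70 to 171 of miR-429.

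By count, the mature products of a single hairpin cluster were far from equal. Counts of different sequences were not calibrated against known amounts here. Such ratios, and the order of the members above, are therefore those of counts. In AsPC-1, miR-200c-3p was 30.0 to 40.5 times as abundant by count as miR-141-3p, though their hairpins share one intron. Summed by seed, miR-200b-3p, miR-200c-3p and miR-429 took 62.7% to 66.2% of the family's counts in AsPC-1 libraries, and the PANC-1 share was 60.5% to 65.4%. miR-200a-3p and miR-141-3p took 30.7% to 34.8% in the former and 30.8% to 35.5% in the latter. The lines overlapped in both seed shares.

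MYEOV knockdown in AsPC-1 raised 3 of the 4 5p products, and no 3p product passed the test. Of the 9 members tested, 3 rose and 6 did not pass an adjusted p of 0.05, against a background of 11.4% of 498 miRNAs called, 7.03% higher and 4.42% lower. The split of calls over all miRNAs was 35 higher and 22 lower, and turned to 25 and 45 with all 12 libraries in one fit, where 3 members were higher and 0 lower. No member fell, at the adjusted threshold or at an unadjusted p under 0.05, and none did in DESeq2. The median LFC of the 9 members was 0.13, and that of all miRNAs was -0.0047. Without AsPC-1 control replicate 1 the LFCs of miR-200a-3p, miR-141-3p and miR-200c-5p were larger, as given below. Neither this median nor the count of groups that did not overlap was recomputed without that library. The groups did not overlap for 5 of the 9 members, where 30.5% of all miRNAs tested did not overlap.

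The miRNAs that rose were miR-200a-5p, miR-200b-5p and miR-141-5p, the products generally held to be the passenger strands of their hairpins. From here on normalised CPM uses the TMM factors of one line's own fit. miR-200b-5p stood at 171, 182 and 182 in the controls and at 258, 255 and 254 after knockdown. The knockdown libraries all lay above the controls, with an LFC of 0.52 (SE 0.083, adjusted p = 0.00090). miR-141-5p stood at 64.4, 49.5 and 62.6 in the controls and at 112, 92.7 and 80.2 after knockdown. Its knockdown libraries were again all higher, with an LFC of 0.69 (SE 0.13, adjusted p = 0.0033). miR-200a-5p stood at 877, 1126 and 1289 in the controls and at 1629, 1449 and 1487 after knockdown, also without overlap. Its LFC was 0.47 (SE 0.11, adjusted p = 0.014), but the adjusted p was 0.088 without AsPC-1 knockdown replicate 1 (LFC 0.42) and 0.077 with a replicate block (LFC 0.49). Without AsPC-1 control replicate 1 its LFC was 0.34 (adjusted p = 0.00043). The remaining 5p product, miR-200c-5p, had 38 to 74 counts in every AsPC-1 library and an LFC of 0.28 (SE 0.24, adjusted p = 0.50). That value rested on single libraries, as it was 0.59 without AsPC-1 control replicate 1 (adjusted p = 0.062), 0.060 without control replicate 2 and 0.18 without knockdown replicate 2.

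None of the 5 products from the 3p arms passed in AsPC-1. miR-200a-3p stood at 16593 ± 1036 CPM in controls and 16972 ± 448 after knockdown (SD, n = 3), an LFC of 0.03 with a 95% interval of -0.13 to 0.20. miR-200b-3p had an LFC of 0.09 (-0.065 to 0.25), miR-200c-3p -0.07 (-0.22 to 0.090) and miR-141-3p 0.13 (-0.097 to 0.36). The largest rise these intervals allow is that of miR-141-3p. miR-429 stood at 6092, 6398 and 6059 in the controls and at 5449, 5683 and 5546 after knockdown. All knockdown values were lower, with an LFC of -0.15 (SE 0.073, adjusted p = 0.21). Without AsPC-1 control replicate 1, the library that stood apart, 5 members passed: miR-429 then had an LFC of -0.16 (adjusted p = 0.028) and miR-141-3p of 0.26 (adjusted p = 0.016), beside the same 3 5p products. The LFC of miR-141-3p was 0.016 without AsPC-1 control replicate 2 (adjusted p = 0.92). In the fit without AsPC-1 control replicate 1, 102 of 505 miRNAs (20.2%) were called, and the LFC of miR-200a-3p was 0.084 (adjusted p = 0.26).

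**Figure D3:**
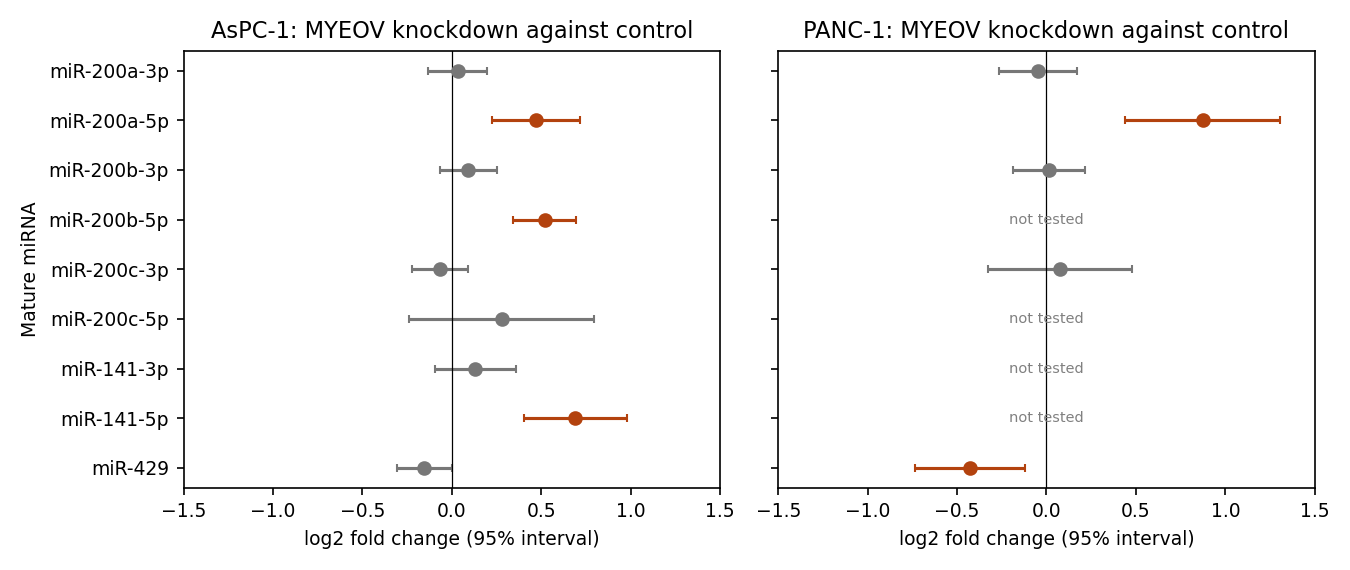
LFC of MYEOV knockdown over control for each member, with 95% intervals, in AsPC-1 (left) and PANC-1 (right), from 3 libraries a group. Red points passed an adjusted p of 0.05: miR-200a-5p, miR-200b-5p and miR-141-5p rose in AsPC-1, miR-200a-5p rose and miR-429 fell in PANC-1, and 4 members were too low in PANC-1 to be tested.

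In PANC-1 knockdown raised miR-200a-5p and lowered miR-429, and the other 3 members tested did not pass. The background was 22% of 551 miRNAs called, 12.7% higher and 9.26% lower, and the split of calls depended on the scaling: 70 higher and 51 lower with TMM factors, 26 and 117 with total counts, and 65 and 29 with upper-quartile factors. The median LFC of all miRNAs was 0.028 with TMM factors and -0.12 with total counts. Of the 5 members, 2 had groups that did not overlap, where 36.7% of all miRNAs tested had such groups.

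miR-200a-5p had 29, 45 and 35 counts in the PANC-1 controls and 62, 57 and 58 after knockdown. On the normalised scale this was 6.38, 8.45 and 9.05 CPM against 16.1, 15.0 and 12.8, with no overlap, and the LFC was 0.87 (SE 0.21, adjusted p = 0.0036). It kept its call under every alternative tried, with LFCs of 0.72 to 0.97 when single libraries were left out. miR-429 had 148, 171 and 113 counts in the controls and 96, 70 and 119 after knockdown. Its normalised CPM was 32.6, 32.1 and 29.2 against 25.0, 18.4 and 26.2, with an LFC of -0.43 (SE 0.15, adjusted p = 0.040). The fall of miR-429 missed the threshold in DESeq2 (LFC -0.44, adjusted p = 0.057) and with upper-quartile factors (LFC -0.39, adjusted p = 0.082). It also missed it without PANC-1 control replicate 2 (LFC -0.41, adjusted p = 0.12), knockdown replicate 1 (-0.48, 0.057) or knockdown replicate 3 (-0.53, 0.063). The LFC was smaller, at -0.29, without knockdown replicate 2 (adjusted p = 0.23). miR-200a-3p had an LFC of -0.05 (95% interval -0.27 to 0.17), miR-200b-3p of 0.01 (-0.19 to 0.22) and miR-200c-3p of 0.07 (-0.33 to 0.48).

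The knockdown effect was not shown to differ between the lines for any member. The interaction of line and knockdown called 0.308% of 650 miRNAs and 0 of 9 members in edgeR, and 0 of 9 in DESeq2. One member had an unadjusted p under 0.05: miR-200a-5p, with a difference in LFC (AsPC-1 minus PANC-1) of -0.50 (SE 0.22, unadjusted p = 0.031, adjusted p = 0.35). Of all miRNAs 11.4% had such a p, so 1 of 9 members is no more than that share. Without AsPC-1 control replicate 1 the interaction called 25 miRNAs and no member, and the difference for miR-200a-5p was -0.63 (adjusted p = 0.073). Under the other scalings, filters, test and block it was -0.53 to -0.27. For miR-429 the difference was 0.18 (95% interval -0.16 to 0.52), and 0.15 to 0.41 under those alternatives. The median difference over all miRNAs was -0.12 with TMM factors, 0.039 with RLE factors (DESeq2's size factors) and 0.10 with total counts. For the 4 members at or near 0 in PANC-1 the interaction could not be read.

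The arms of a hairpin come from one precursor and are counted in one library, so their ratio does not depend on library size. The 3p product was the more abundant in every AsPC-1 library: 91.1% to 95.2% of the counts of mir-200a, 98.6% to 99.0% of mir-200b, 99.9% of mir-200c and 73.0% to 82.8% of mir-141. After knockdown the mean ratio of 3p over 5p was lower in all 4 hairpins. The exact permutation test used here cannot give a p under 0.1 with 3 libraries a group.

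For mir-200b in AsPC-1 the log2 ratio of 3p over 5p counts was 6.63, 6.55 and 6.64 in the controls and 6.20, 6.16 and 6.17 after knockdown. For mir-141 it was 2.27, 2.19 and 2.09 and then 1.43, 1.67 and 1.82. Both hairpins had every knockdown library below every control, with mean differences of -0.43 and -0.54 (p = 0.1 in a two-sided exact permutation test, the smallest that 3 libraries against 3 allow). For mir-200a in AsPC-1 it was 4.32, 3.89 and 3.59 and then 3.36, 3.59 and 3.49, a difference of -0.45 whose groups overlapped (exact permutation p = 0.2) and which was -0.26 without AsPC-1 control replicate 1. For mir-200c it was 9.74, 10.7 and 10.4 and then 10.0, 9.66 and 9.97, a difference of -0.39 whose groups also overlapped (exact permutation p = 0.3), with values of -0.66 to -0.17 when single libraries were left out.

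In PANC-1 only mir-200a had enough counts on both arms. Its log2 ratio was 3.84, 3.18 and 3.20 in the controls and 2.41, 2.42 and 2.63 after knockdown, so the groups did not overlap, and the difference was -0.92 (exact permutation p = 0.1). The 3p share went from 90.2% to 93.6% down to 84.3% to 86.2%. mir-200b, mir-200c and mir-141 had at most 9 counts of the 5p product in any PANC-1 library, and no arm ratio is given for them.

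**Figure D4:**
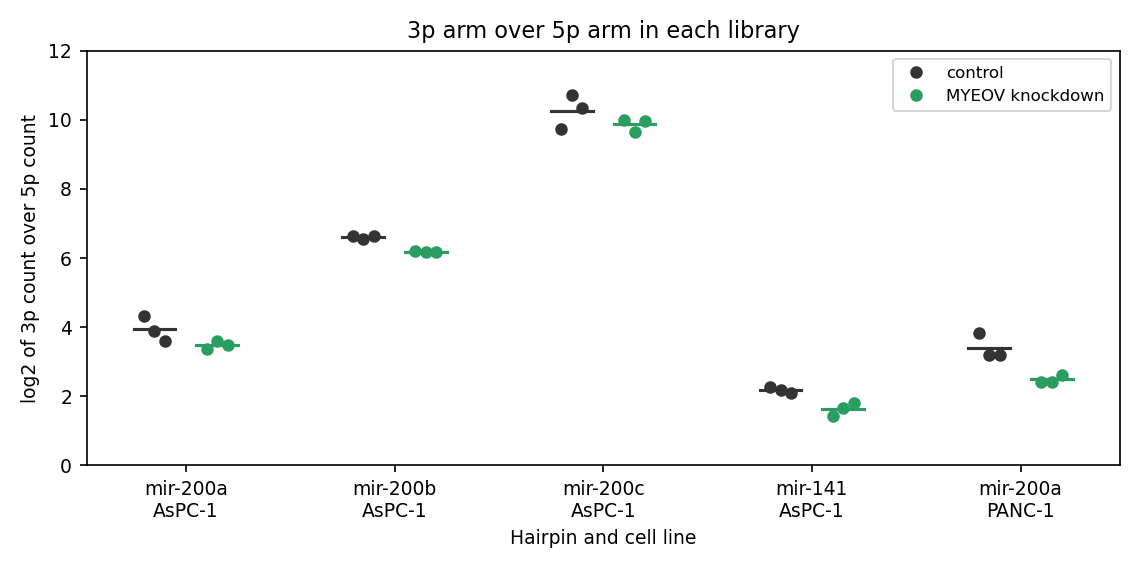
log2 of the 3p count over the 5p count (y axis; 0.5 added to each count) for the hairpins with counts on both arms, with 1 point per library and lines for the mean of 3. In AsPC-1 the knockdown libraries lie below the controls for mir-200b and mir-141 and overlap them for mir-200a and mir-200c, and in PANC-1 they lie below them for mir-200a.

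Whether the arm shift was particular to the family was looked at across all hairpins with both arms tested, a description chosen after the values of the members were seen. The minor arm was defined as the one with fewer counts over the 6 libraries of a line. In AsPC-1 the minor arm had the higher knockdown LFC in 73 of 127 hairpins (57.5%), with a median difference of 0.066 between minor and major arm. All 4 family hairpins were among them, with differences of 0.35 to 0.56, beside 69 of the 123 others (56.1%). Across these 127 hairpins, 16 minor arms rose and 3 fell, while 3 major arms rose and 10 fell. The 3 called 5p products of the family were among the 16. In PANC-1 the minor arm had the higher LFC in 103 of 150 hairpins (68.7%), with a median difference of 0.13, and mir-200a stood at 0.92 in a range of -0.76 to 1.20. A rise of minor arms was therefore seen outside the family too, and no test of the family against other hairpins was made.

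**Figure D5:**
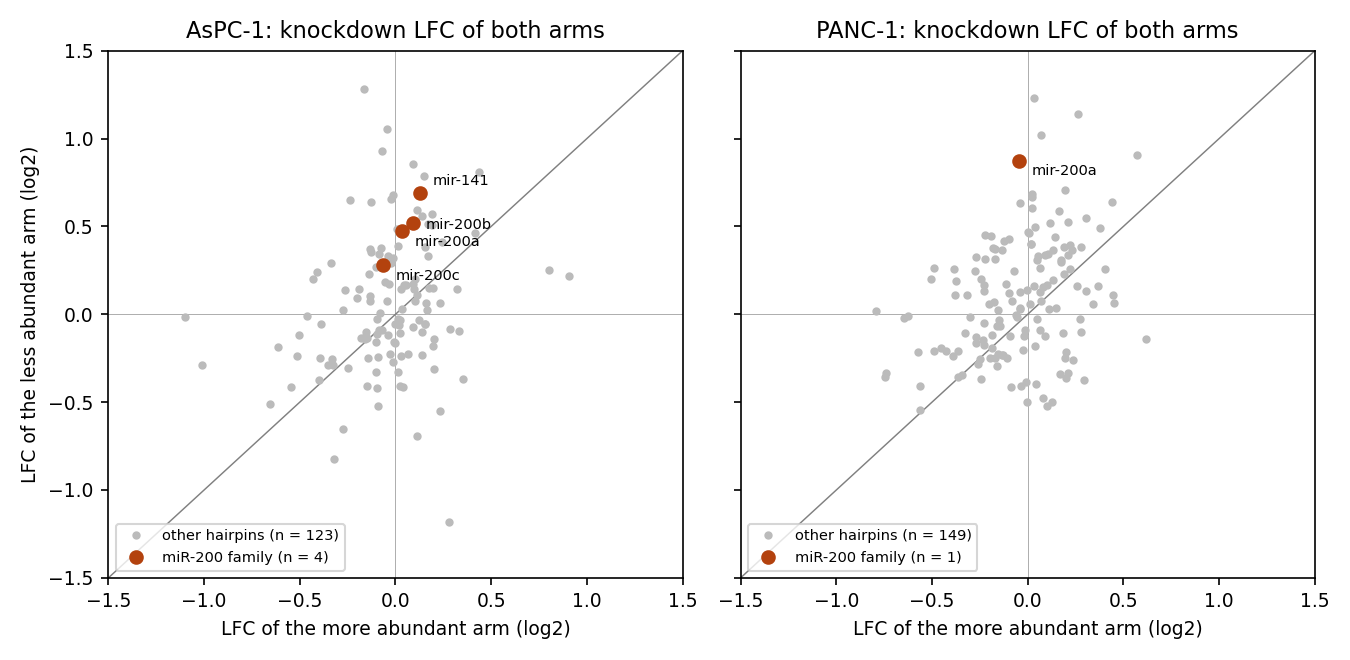
Knockdown LFC of the less abundant arm (y axis) against that of the more abundant arm (x axis) for hairpins with both arms tested, 127 in AsPC-1 (left) and 150 in PANC-1 (right), with 1 point per hairpin and the diagonal for equal LFCs. The 4 family hairpins in AsPC-1 and mir-200a in PANC-1, in red, lie above the diagonal, as do 73 and 103 of all hairpins.

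Other miRNAs tied to the epithelial or the mesenchymal state were read beside the family, without a test against it. Of 9 names of other epithelial miRNAs, 3 were listed and 2 tested. miR-203a-3p, a skin and epithelial miRNA, stood at 7.58 ± 0.70 normalised CPM (12-library factors) in AsPC-1 controls and 5.99 ± 1.61 in PANC-1 controls (SD, n = 3), an LFC of 0.22 (SE 0.24, adjusted p = 0.42). miR-375, a miRNA of endocrine and epithelial cells, was lower in AsPC-1, at 1.59 ± 0.74 against 9.33 ± 1.02, with an LFC of -2.64 (SE 0.31, adjusted p = 1.6e-06). Neither passed in a knockdown comparison.

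Of 15 miRNAs linked with a mesenchymal state, 13 were tested between the control libraries, and 9 were lower and 4 higher in AsPC-1, where 46.7% of all miRNAs tested were lower and 36% higher with TMM factors. Of the 9, miR-10b-3p, miR-9-3p and miR-100-3p passed the filter through the PANC-1 libraries alone and so had to differ. The other 10 were 6 lower and 4 higher, with a median LFC of -1.83 beside -0.27 for all miRNAs tested. The lower ones were arms of miR-9, miR-10b, miR-100, miR-125b and miR-155, and the higher ones arms of miR-221 and miR-222. Of the 6 lower ones, miR-9-5p had an LFC of -8.81 (SE 0.16) and miR-10b-5p of -6.94 (SE 0.14), both named after their values were seen, and the others had LFCs of -3.57 to -0.96. The smallest, that of miR-155-5p, was about as large as the shift between scalings given above. miR-100-5p stood at 9677 ± 564 CPM in AsPC-1 and 103950 ± 4730 in PANC-1 controls, and miR-125b-5p at 1199 ± 171 and 7013 ± 278. miR-221-3p, a regulator of the cell cycle inhibitor p27, went the other way, at 20133 ± 382 against 7844 ± 136, as did miR-222-3p at 5384 ± 55.1 against 1162 ± 92.5. On knockdown, 2 of the 10 tested in AsPC-1 rose, miR-125b-1-3p (LFC 0.75, SE 0.13, adjusted p = 0.0012) and miR-221-5p (LFC 0.38, SE 0.091, adjusted p = 0.014), and 1 of the 13 tested in PANC-1 rose, again miR-125b-1-3p (LFC 0.50, SE 0.086, adjusted p = 7.4e-05). These were named after their values were seen. The counts are to be read beside the share of all miRNAs called higher after knockdown, 7.03% for AsPC-1 and 12.7% for PANC-1.

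The miRNAs whose levels over the 4 groups were most like the family's were miR-192-5p, miR-582-5p, miR-194-5p, miR-194-3p and miR-215-5p. Likeness was the root mean square distance between log2 of the group means (0.5 added, each centred on its own mean) and those of the summed family, over 641 other miRNAs. miR-192-5p was nearest at 0.102, with 64723 ± 5109 CPM in AsPC-1 controls and 204 ± 11.9 in PANC-1 controls. The summed family stood at 60287 ± 3289 and 226 ± 4.46. The other 4 lay at 0.151 to 0.280, with miR-194-5p at 55710 ± 11382 and 157 ± 19.9 and miR-215-5p at 3678 ± 318 and 9.01 ± 2.20. The likeness did not extend to knockdown for all 5. After knockdown in AsPC-1 the summed family stood at 57447 CPM, while miR-215-5p fell to 2182 CPM (LFC -0.65, adjusted p = 0.00014 in edgeR). miR-194-3p rose from 328 to 474 CPM (LFC 0.64, adjusted p = 0.00029 in edgeR). It is the minor arm of its hairpin, as the called 5p members are of theirs. Its major arm, miR-194-5p, did not pass (LFC -0.13, adjusted p = 0.44), and neither did the family's 3p members. These LFCs come from the AsPC-1 fit and the CPM from the 12-library factors.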

How the data were processed

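Small RNA of AsPC-1 and PANC-1 cells was sequenced by the authors on an Illumina instrument. Per the labels and methods, they trimmed adapters, mapped reads to hg19 with Bowtie (version not given in the sources used here), retained reads of miRNA length without a mismatch, and deposited raw read counts per mature miRNA, where reads with another 5′ end than the most abundant sequence are left out. A miRNA missing from a library was set to 0.

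Counts were fitted in edgeR 4.0.16 (R 4.3.3): filterByExpr with a minimum count of 10, TMM factors, quasi-likelihood F test (two-sided), Benjamini-Hochberg adjustment over all miRNAs tested, threshold 0.05, separately for each line, for the lines within each treatment, and for the interaction. SE is the absolute LFC over the square root of F. Fits were tested on simulated data. Arm ratios were compared with exact permutation tests, and counting intervals are exact binomial. Alternatives were other scalings and filters, DESeq2 1.42.0, left-out libraries and a replicate block. Named miRNAs were all 9 members, up to 4 abundant ones from each of 2 lists, and the 5 nearest by likeness. Members and lists were chosen with earlier results of these data known.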

Additional observations from a re-analysis of the deposited data

How the results depend on the processing

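The calls of miR-200b-5p and miR-141-5p in AsPC-1 and of miR-200a-5p in PANC-1 kept their direction and their side of the threshold under every alternative tried. Under a replicate block by library number, 29 instead of 57 miRNAs were called in AsPC-1 and miR-200a-5p missed the threshold (LFC 0.49, adjusted p = 0.077), while no other member's call changed. The deviations of same-numbered libraries correlated at -0.16, -0.13 and 0.12 for AsPC-1, 0.052, 0.029 and 0.14 for PANC-1, 0.27, 0.096 and 0.18 for the controls of both lines and -0.037, 0.013 and -0.032 for their knockdown libraries. No comparison had all 3 above 0.1, so the numbers were not taken to pair them. In PANC-1, 1 instead of 2 members was called with upper-quartile factors (94 of 551 miRNAs) and 1 in DESeq2 (104 of 551), and 67 instead of 121 miRNAs with all 12 libraries in one fit. A minimum of 10 counts in every library left 5 members and 302 called miRNAs between the lines in controls, and 5 and 315 after knockdown, because fewer miRNAs were tested. The interaction called 4 instead of 2 miRNAs with upper-quartile factors and 10 with no filter. Uncalled members changed sign near 0: miR-200a-3p (-0.065) and miR-200b-3p (-0.0072) in AsPC-1 with all 12 libraries in one fit, and in PANC-1 miR-200b-3p (-0.13) and miR-200c-3p (-0.068) with total counts, miR-200a-3p (0.00044) with upper-quartile factors and miR-200b-3p (-0.0016) with no filter. Leaving out single libraries gave 2 to 5 called members in AsPC-1 (24 to 102 miRNAs), 1 to 2 in PANC-1 (55 to 129 miRNAs) and 1 to 25 miRNAs for the interaction. The lone uncalled LFCs that turned ranged from -0.0059 to 0.084 for miR-200a-3p in AsPC-1, and in PANC-1 from -0.11 to 0.011 for miR-200a-3p, -0.046 to 0.056 for miR-200b-3p and -0.14 to 0.35 for miR-200c-3p. Except where stated, the cause was not tested. In PANC-1, 4 members had at most 9 counts a library, so a fall or a small rise in them was not detectable at this depth.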
